A study of Sus scrofa with 63 samples.

Results

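Transcripts of the cytosolic ribosomal proteins were followed in the liver of pigs at 4 ages. Members were the genes whose symbol in the platform annotation is that of a ribosomal protein of the large subunit (RPL with a number, and RPLP0 to RPLP2) or of the small subunit (RPS with a number, and RPSA), on probe-sets with exactly 1 symbol. The rule gave 62 genes of the 6765 genes with a symbol on the array, 37 of the large and 25 of the small subunit. They have 94 probe-sets, and each gene is described by the probe-set with the highest mean over all arrays. All animals were German Landrace offspring of gilts that received a gestational high protein diet (HP offspring), and their livers were taken at 94 days post conception (94 dpc, 16 arrays), 1 day post natum (1 dpn, 16 arrays), 28 dpn (15 arrays) and 188 dpn (16 arrays). Each array holds the liver RNA of 1 animal. The comparisons run between neighbouring ages, 1 dpn with 94 dpc (period I), 28 dpn with 1 dpn (period II) and 188 dpn with 28 dpn (period III), and between adult and fetus (188 dpn with 94 dpc).

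The ribosome translates mRNA with a small subunit, which reads the codons, and a large subunit, which joins the amino acids. Each subunit is ribosomal RNA covered with proteins, most of which are needed in equal numbers, and excess free ribosomal proteins are degraded. In mammals most mRNAs of these proteins begin with a tract of pyrimidines, through which nutrients and mTOR control their translation, so that the mRNA level is only a part of the control.

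The arrays came from sib pairs, and neither sex, mother, sib pair nor weight entered the analysis, so animals of a litter were counted as independent. The 94 dpc fetuses came from other sows in a separate experiment. The way of killing and an overnight fast at 28 and 188 dpn also went with age. The lightest and heaviest sibs were taken at 94 dpc and 1 dpn, but animals of middle growth at 28 and 188 dpn. Piglets kept for 28 and 188 dpn were cross-fostered, and the males were castrated. The effects of these differences cannot be told apart from that of age. The gestational diet of the gilts was the same in all groups, so no value describes its effect. All 13 hepatocyte markers on the array were above background at every age, with a mean log2 signal between 14.89 and 15.84 on every array. Single markers changed, with 6 lower and 2 higher at 1 dpn than at 94 dpc (34.0% and 22.9% of all probe-sets tested). Between fetus and adult 11 were lower and 2 higher (53.1% and 27.0% of all), with a median change of −0.38. In bulk liver a smaller share of a cell type and less RNA per cell cannot be told apart. At 94 dpc, array 6 stood apart (macrophage markers 6.83 and a 3′ minus 5′ difference of actin and GAPDH of 3.42, both outside the range of the other arrays of that age). Without it 54 members were lower and 1 was higher in period I, and 54 were lower and 2 higher in adults against fetuses. The shares of all probe-sets without this array are not given here.

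Signals are given on the log2 scale, on which 1 is a doubling. Of the 62 members 54 had a mean signal above 14 and lay in the brightest 0.99% of probe-sets. The brightest probe-set of an array had a signal between 15.40 and 16.61, so these members were close to the upper end of the scale, where differences can be compressed. Of the others RPS27L, RPL22L1, RPL7L1, RPL26L1 and RPL37 had mean signals of 12.69, 12.57, 11.83, 11.08 and 9.19, and RPL26, RPL30 and RPS15A lay near background. A probe-set's brightness depends on its probes, so these signals do not rank the amounts of the mRNAs. Probes of near-identical copies and processed pseudogenes, which are many for ribosomal proteins, may share signal.

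Ribosomal protein transcripts were at their highest in the fetus. The mean over the members was 14.52, 14.70 and 14.91 (lowest, median and highest array) at 94 dpc, 13.80, 14.03 and 14.27 at 1 dpn, 13.77, 13.90 and 14.16 at 28 dpn, and 13.75, 14.06 and 14.25 at 188 dpn. Every fetal array was therefore above every postnatal array, whereas the 3 postnatal ages overlapped. Of the 62 members 57 had their highest stage mean at 94 dpc, among them RPL26, RPL30 and RPS15A, which lay near background. The share of all probe-sets that were highest at 94 dpc is not given here. RPL7L1 was highest at 1 dpn, RPL26L1 and RPL37 at 28 dpn, and RPL27 and RPS27L at 188 dpn. The lowest mean was at 1 dpn in 27 members, at 28 dpn in 27 and at 188 dpn in 7. These 7 again include RPL26, RPL30 and RPS15A. At 94 dpc only RPS27L was lowest. The plot of the subunit means shows this step on both subunits.

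**Figure D1:**
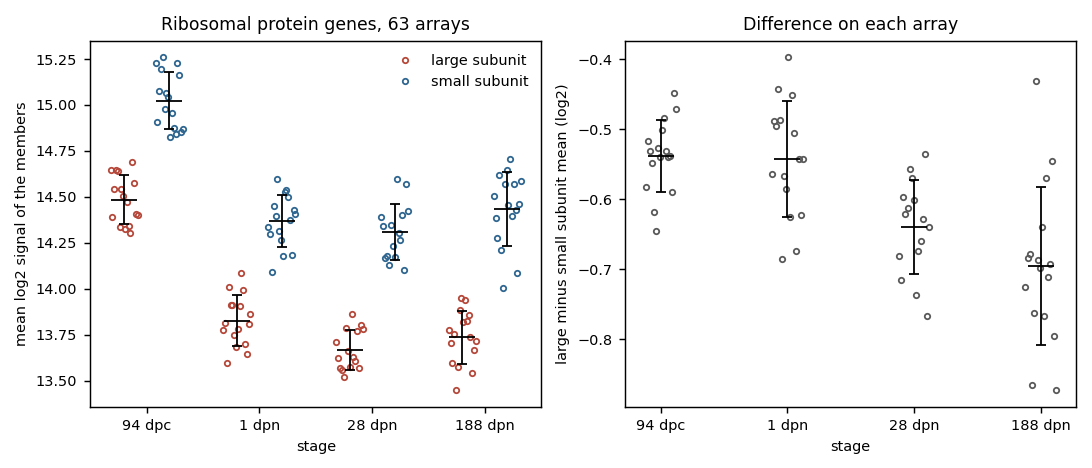
Left, mean log2 signal of the 37 large and 25 small subunit genes on each of 63 arrays against stage; right, the difference of the 2 means on the same array. Circles are arrays, and black bars give the mean and SD of a stage. Both subunits step down between 94 dpc and 1 dpn, and the difference between them is −0.70 ± 0.11 (SD) at 188 dpn and −0.54 ± 0.05 at 94 dpc.

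In period I nearly the whole set fell. A member entered the test when it exceeded the median signal of the array in 50% or more of the animals of either stage, and a change was called at an adjusted p under 0.05 (limma, Benjamini-Hochberg over all probe-sets tested). Of 59 members tested, 55 were lower at 1 dpn than at 94 dpc, 1 was higher and 3 did not pass, whereas 34.0% of all 12839 probe-sets tested were lower and 22.9% were higher. The median change of the members was −0.75, compared with −0.10 over all probe-sets tested. It was −0.75 over the large and −0.71 over the small subunit. In 38 members, 24 of the large and 14 of the small subunit, all arrays at 1 dpn lay below all arrays at 94 dpc, which held for 3.20% of all probe-sets tested, and none lay wholly above (1.85% of all). In 41 members the fall was at least 1.5-fold. The share of all probe-sets with such a fall was not counted. The lower quartile of the change was −0.88 for the members and −0.47 over all probe-sets tested.

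RPL5, which binds 5S rRNA and brings it into the large subunit together with RPL11, fell most. Its signals were 14.27, 14.67 and 15.30 (lowest, median and highest) at 1 dpn, against 15.69, 15.97 and 16.19 at 94 dpc. The groups did not overlap, and the change was −1.17 (SE 0.09, adjusted p = 1.1e-12), a signal lower by 55.7%. RPL11 fell too, with 14.54, 14.92 and 15.26 at 1 dpn and 15.45, 15.78 and 16.17 at 94 dpc, again without overlap (change −0.84, SE 0.08, adjusted p = 2.9e-10). RPL34, a protein of the large subunit, had 14.08, 14.32 and 14.63 at 1 dpn, against 15.10, 15.37 and 15.76 at 94 dpc (change −1.03, SE 0.08, adjusted p = 2.5e-13). RPL7, a large subunit protein found in all domains of life, had 14.41, 14.68 and 14.90 at 1 dpn, against 15.43, 15.61 and 15.97 at 94 dpc (change −1.01, SE 0.07, adjusted p = 1.4e-13). Neither gene's arrays overlapped between the ages. Of the 5 tested genes for proteins around the exit of the peptide tunnel (RPL17, RPL19, RPL22, RPL31 and RPL35) all 5 changed downwards with a median of −0.75, but a second, dimmer probe-set of RPL35 rose by 0.82 (adjusted p = 3.6e-08).

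The stalk of the large subunit, which recruits elongation factors and stimulates their GTP hydrolysis, is built from RPLP0 and pairs of RPLP1 and RPLP2, on a base to which RPL12 also belongs. All 4 genes fell, but by different amounts. RPLP1 had 14.04, 14.22 and 14.39 at 1 dpn, against 14.96, 15.23 and 15.51 at 94 dpc, without overlap (change −0.99, SE 0.07, adjusted p = 2.0e-14). RPLP2 had 13.46, 13.92 and 14.48 at 1 dpn, against 13.98, 14.61 and 15.04 at 94 dpc (change −0.70, SE 0.10, adjusted p = 4.1e-07). RPLP0 had 15.12, 15.42 and 15.84 at 1 dpn, against 15.63, 15.81 and 16.20 at 94 dpc (change −0.48, SE 0.08, adjusted p = 4.5e-06). The arrays of RPLP0 and RPLP2 overlapped between the ages. A second, much dimmer probe-set of RPLP0 went the other way (0.28, SE 0.11, adjusted p = 0.029), so the fall of RPLP0 rests on the probe-set chosen.

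In the small subunit, RPS4X, an X-linked protein of the body of the subunit, fell most. It had 13.94, 14.19 and 14.43 at 1 dpn, against 14.89, 15.24 and 15.54 at 94 dpc (change −1.04, SE 0.08, adjusted p = 7.1e-13). RPS25, a protein of the head that some viral mRNAs need for initiation, had 14.50, 14.72 and 15.00 at 1 dpn, against 15.51, 15.75 and 16.02 at 94 dpc (change −1.02, SE 0.06, adjusted p = 8.5e-15). Neither gene overlapped between the ages. All 11 genes of the head and all 12 tested genes of the body and platform fell, with medians of −0.79 and −0.69. These groups by position were put together after the values were seen.

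The smallest called falls were those of RPL27, RPS16, RPS12 and RPSA. RPSA, which is needed for the maturation of the small subunit and is also known as the laminin receptor, had 14.83, 15.15 and 15.39 at 1 dpn, against 15.24, 15.63 and 15.80 at 94 dpc (change −0.36, SE 0.07, adjusted p = 1.2e-04). RPS16, whose tail reaches the peptidyl tRNA, had 14.45, 14.82 and 15.06 at 1 dpn, against 14.90, 15.12 and 15.41 at 94 dpc (change −0.30, SE 0.07, adjusted p = 6.7e-04). RPL27, a large subunit protein, had 14.13, 14.49 and 14.90 at 1 dpn, against 14.40, 14.68 and 15.13 at 94 dpc (change −0.20, SE 0.08, adjusted p = 0.038). All 3 overlapped between the ages, and after quantile normalization the changes of RPSA, RPS16 and RPL27 were 0.17, 0.24 and 0.12, so their direction was not stable. RPL27, RPL26L1 and RPS16 had the smallest ranges of the 4 stage means.

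The size of the fall in period I depended on the scaling. Quantile normalization, which gives the brightest probe-sets of every array the same values, left 37 members lower and 4 higher, with a median of −0.19 compared with −0.02 over all probe-sets tested. Centring each array on the median left 54 lower and 2 higher, with a median of −0.64. The shares of all probe-sets called under these scalings are not given here, so these counts do not single out the members. RNAs added at labelling differed between the ages as well. Their 3′ minus 5′ difference lay between 0.58 and 1.22 at 1 dpn and between 0.01 and 0.26 at 94 dpc, without overlap. With this difference as a covariate 6 members were lower (2.18% of all probe-sets were), with a median of −0.48, and labelling and age cannot be told apart in period I. Markers of red cell precursors (7 on the array, all above background at both ages) had a mean signal between 7.26 and 8.43 at 1 dpn and between 10.24 and 11.54 at 94 dpc. Markers of neutrophils and myeloid precursors (6 on the array, all above background at both ages) had a mean signal between 6.26 and 8.81 at 1 dpn and between 7.16 and 10.57 at 94 dpc. The lowest fetal value of both marker sets was that of array 6. The part of these cells in the fall of the ribosomal protein genes was not tested.

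**Figure D2:**
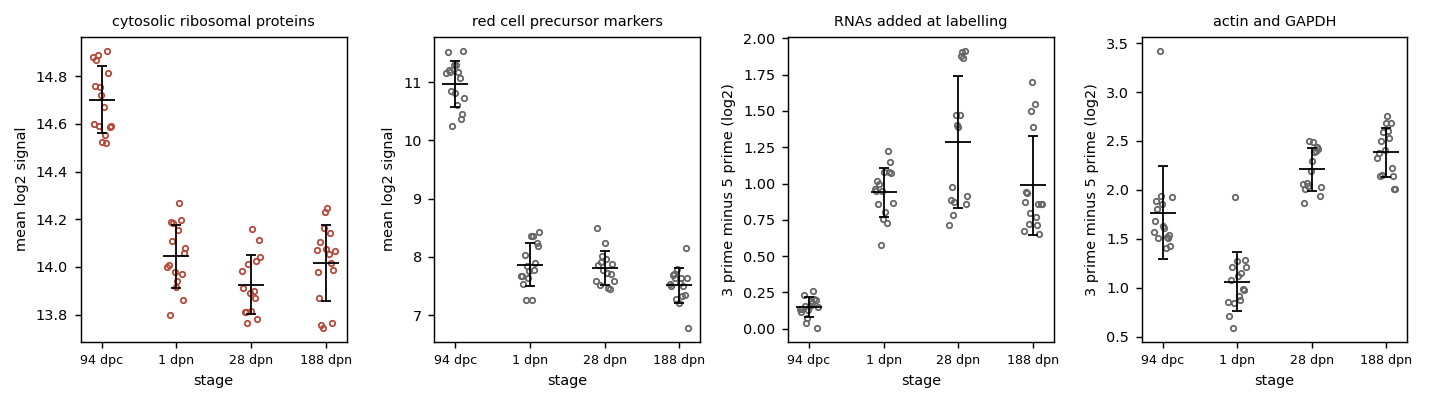
Per array against stage, from left to right: mean log2 signal of the 62 ribosomal protein genes, mean log2 signal of 7 red cell precursor markers, and the 3′ minus 5′ difference (log2) of the RNAs added at labelling and of actin and GAPDH. Circles are arrays, and black bars give the mean and SD. The first 3 measures separate 1 dpn from 94 dpc without overlap, and the last averages 2.21 at 28 dpn and 1.06 at 1 dpn.

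In period II the median of the set hardly moved and single members went in both directions. Of 59 tested, 10 were higher at 28 dpn than at 1 dpn, 18 were lower and 31 did not pass, compared with 28.8% higher and 42.9% lower of all 13078 probe-sets tested. The median change was −0.01 (all probe-sets tested −0.14). RPL22L1, RPL7L1 and RPL4 were lower and RPLP1 was higher without overlap of the arrays, which held for 6.74% of all probe-sets in the first direction and 4.95% in the second. The split depended on the scaling, with 6 higher and 30 lower after quantile normalization and 34 higher and 7 lower after centring. The shares over all probe-sets above were taken without rescaling and cannot be set beside these counts.

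RPL4, whose loop reaches into the peptide tunnel, fell for the second time. It had 13.46, 13.81 and 13.97 at 28 dpn, against 14.11, 14.50 and 14.92 at 1 dpn (change −0.74, SE 0.08, adjusted p = 1.5e-09). RPS24, a protein of the small subunit body, had 13.91, 14.07 and 14.55 at 28 dpn, against 14.11, 14.53 and 14.93 at 1 dpn (change −0.48, SE 0.09, adjusted p = 9.4e-06). RPL12, of the stalk base, had 13.90, 14.09 and 14.41 at 28 dpn, against 14.22, 14.60 and 14.89 at 1 dpn (change −0.44, SE 0.07, adjusted p = 1.3e-06). Arrays of RPS24 and RPL12 overlapped between the ages, and with the mean of all its probe-sets RPL12 changed by −0.02 and did not pass. Of the 55 members that fell in period I, 16 also fell in period II, 8 rose and 31 did not pass. Neither the share that fell nor the share that rose exceeded that of all probe-sets tested in period II (42.9% lower and 28.8% higher). The 16 included RPL3, RPL4, RPL5, RPL6, RPL7, RPL9, RPLP0, RPSA, RPS3A and RPS6, of which RPLP0 changed sign after centring.

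Apart from RPL37, the increases were below 0.5. RPL37, a large subunit protein seen by a dim probe-set, had 8.82, 9.53 and 10.11 at 28 dpn, against 7.97, 8.55 and 9.02 at 1 dpn (change 0.90, SE 0.12, adjusted p = 4.9e-08). RPLP1 had 14.51, 14.64 and 15.21 at 28 dpn, against 14.04, 14.22 and 14.39 at 1 dpn, with all arrays at 28 dpn above those at 1 dpn (change 0.46, SE 0.07, adjusted p = 2.6e-07). Its partners in the stalk differed from it, since RPLP2 changed by 0.05 (SE 0.10, adjusted p = 0.66) and RPLP0 by −0.21 (SE 0.08, adjusted p = 0.027). For RPLP0 the change was 0.02 after centring and 0.12 with the mean of its probe-sets. RPS28, a protein of the head near the exit of the mRNA, had 14.64, 14.97 and 15.50 at 28 dpn, against 14.48, 14.72 and 14.96 at 1 dpn (change 0.30, SE 0.07, adjusted p = 5.6e-04). RPS10, of the head near the entry of the mRNA, had 14.57, 14.81 and 15.31 at 28 dpn, against 14.19, 14.58 and 14.75 at 1 dpn (change 0.26, SE 0.07, adjusted p = 2.1e-03). Both overlapped between the ages. RPL26L1, RPS27L, RPS13, RPL19, RPL13 and RPL23 also passed, of which RPS27L changed by 0.25 (SE 0.10, adjusted p = 0.020) and by −0.03 after quantile normalization.

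Signals of the 3′ and 5′ ends of control genes moved apart with age in this period. The 3′ minus 5′ difference of actin and GAPDH averaged 2.21 (1.87 to 2.50) at 28 dpn, against 1.06 (0.59 to 1.93) at 1 dpn. The control probe-sets of elongation factor 1 alpha at its 3′ end averaged 15.34 at 28 dpn and 15.43 at 1 dpn, whereas those at its 5′ end averaged 14.87 at 28 dpn and 15.56 at 1 dpn. With the difference of actin and GAPDH as a covariate 2 members were higher and 7 lower. Shares over all probe-sets under this covariate are not given here, so these counts do not single out the members. RPL4, RPL7L1, RPL22L1 and RPL7 still passed (−0.64, −0.98, −2.28 and −0.65), and RPLP1 changed by 0.36 without passing. Immune cell markers moved as well. Markers of T and NK cells (9 on the array) had a mean signal between 6.09 and 7.33 at 28 dpn, with CD4 and PRF1 not above background, against 4.51 to 5.99 at 1 dpn, where 7 of the 9 were not above background. Macrophage markers (9 on the array, all above background) lay between 11.24 and 12.08 at 28 dpn and between 9.94 and 11.36 at 1 dpn. Markers of B and plasma cells (2 on the array, CD79B not above background at either age) lay between 5.79 and 8.10 at 28 dpn and between 2.96 and 6.31 at 1 dpn. The part of these cells in the changes of period II was not tested.

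**Figure D3:**
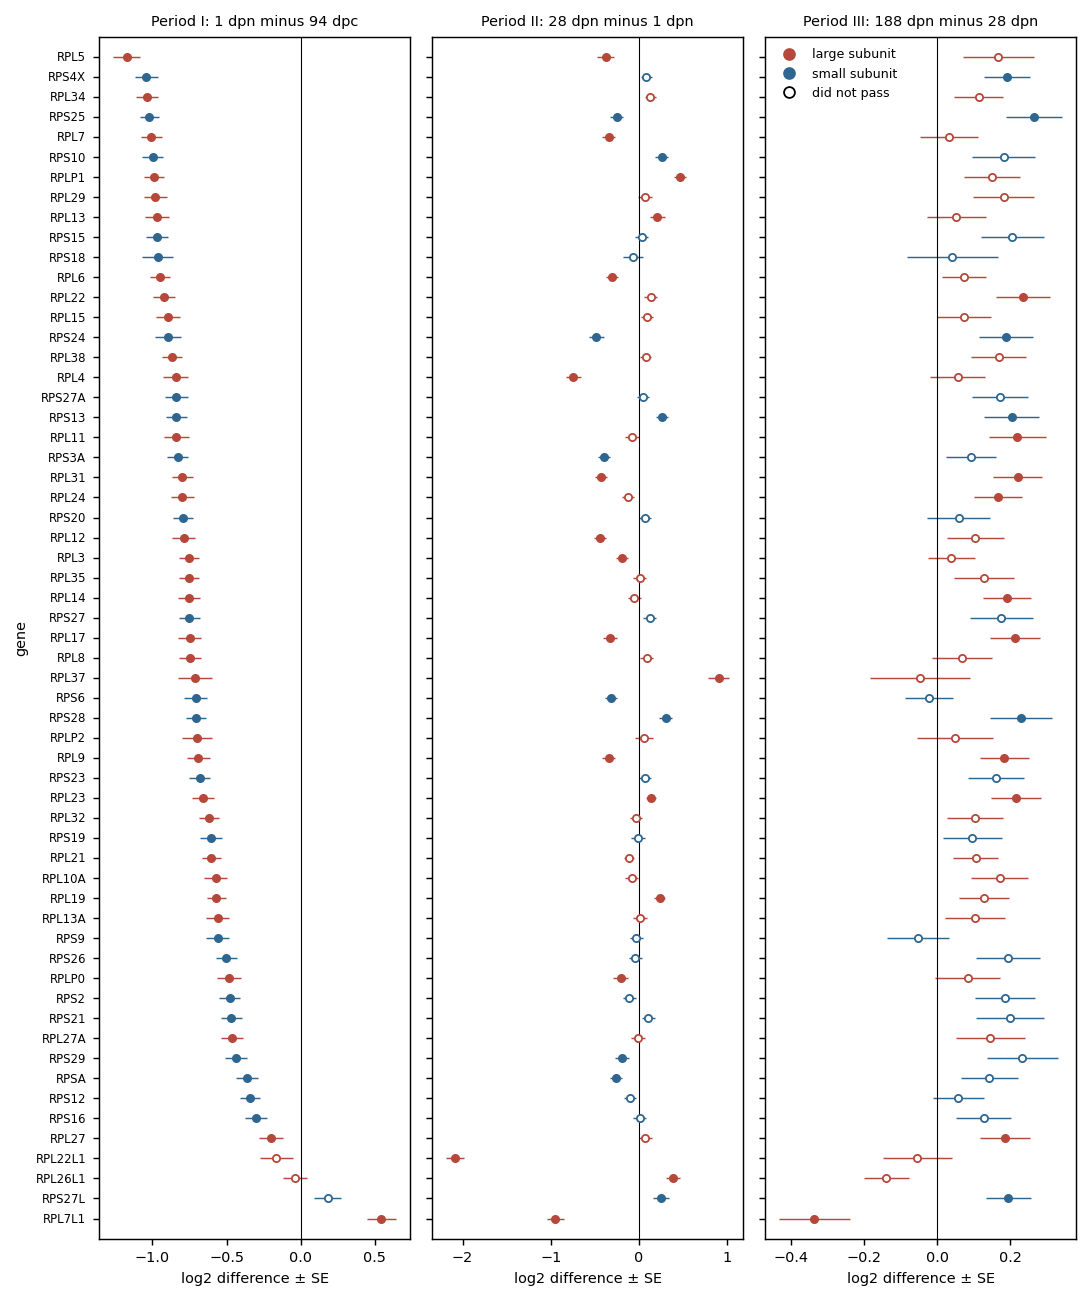
Change of each of the 59 tested ribosomal protein genes in periods I, II and III (later minus earlier stage, log2 scale, bars are 1 SE), ordered by period I. Filled circles passed the test and open circles did not. Nearly all genes lie below 0 in period I, 18 lie below and 10 above 0 with a pass in period II, and in period III 15 passed above 0 and RPL7L1 below it. The horizontal scales differ.

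Period III brought only small changes. Of 59 members tested, 15 were higher at 188 dpn than at 28 dpn, 1 was lower and 43 did not pass, compared with 12.3% higher and 22.5% lower of all 12418 probe-sets tested. The median change was 0.14 (0.11 over the large and 0.18 over the small subunit), against −0.07 over all probe-sets tested. No member separated the ages without overlap, which 0.395% of all probe-sets did upwards and 0.862% downwards. The split turned with the scaling, with 0 higher and 8 lower after quantile normalization and 36 higher and 1 lower after centring. Shares over all probe-sets after rescaling are not given here. RPS25 rose most, with 14.36, 14.77 and 15.05 at 188 dpn, against 14.28, 14.45 and 14.99 at 28 dpn (change 0.26, SE 0.08, adjusted p = 7.6e-03, and 0.15 without a pass after quantile normalization). RPL22, at the exit of the peptide tunnel, had 14.47, 14.90 and 15.22 at 188 dpn, against 14.46, 14.59 and 14.98 at 28 dpn (change 0.23, SE 0.07, adjusted p = 0.012). RPS28, RPL31 and RPL11 changed by 0.23, 0.22 and 0.22 (SE 0.08, 0.07 and 0.08, adjusted p = 0.033, 0.012 and 0.027). All of these overlapped widely between the ages. None of the 4 stalk genes passed.

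Across the whole span the set was lower in the adult. Of 59 members 54 were lower at 188 dpn than at 94 dpc, 2 were higher and 3 did not pass (RPS21, RPL27 and RPL37). Of all 13377 probe-sets tested 53.1% were lower and 27.0% higher, and the median of −0.62 of the members stood beside −0.37 over all. In 27 members (19 large, 8 small) all adult arrays lay below all fetal arrays, and in RPS27L all lay above, whereas 16.1% and 7.80% of all probe-sets did so. Centring left 25 lower and 8 higher, and quantile normalization 44 lower and 4 higher. The 3′ minus 5′ difference of the added RNAs lay between 0.65 and 1.70 at 188 dpn and between 0.01 and 0.26 at 94 dpc, so that labelling and age cannot be told apart here either. With it as a covariate 55 members were lower and 1 higher. The shares over all probe-sets above belong to the counts without rescaling or covariate and cannot be set beside these. Markers of red cell precursors (7 on the array, TFRC not above background in adults) lay between 6.79 and 8.16 at 188 dpn and between 10.24 and 11.54 at 94 dpc. Those of neutrophils and myeloid precursors (6 on the array, S100A12 and PRTN3 not above background in adults) lay between 4.86 and 6.33 at 188 dpn and between 7.16 and 10.57 at 94 dpc. Those of proliferation (13 on the array, 6 not above background in adults) lay between 4.91 and 6.48 at 188 dpn and between 8.34 and 9.58 at 94 dpc, and those of macrophages (9) between 10.51 and 11.20 at 188 dpn and between 6.83 and 10.61 at 94 dpc. Array 6, which stood apart, gave the lowest fetal value of each of these marker sets. The median of the macrophage markers was 10.73 at 188 dpn and 10.21 at 94 dpc. The part of these differences in the fall of the members was not tested.

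After RPL22L1, the deepest falls between fetus and adult were in RPL4, RPL5, RPL7 and RPS24. RPL4 had 13.52, 13.78 and 14.31 at 188 dpn, against 15.13, 15.42 and 15.68 at 94 dpc (change −1.53, SE 0.08, adjusted p = 1.4e-17). Its signal was 65.4% lower, with changes of −0.84 in period I and −0.74 in period II. RPL5 had 13.98, 14.50 and 15.06 at 188 dpn, against 15.69, 15.97 and 16.19 at 94 dpc (change −1.38, SE 0.09, adjusted p = 1.9e-15). RPL7 had 13.98, 14.39 and 14.72 at 188 dpn, against 15.43, 15.61 and 15.97 at 94 dpc (change −1.32, SE 0.08, adjusted p = 7.1e-17). RPS24 had 13.91, 14.26 and 14.58 at 188 dpn, against 15.22, 15.45 and 15.80 at 94 dpc (change −1.19, SE 0.08, adjusted p = 1.1e-15). None of the 4 overlapped between the ages, and RPL4, RPL5 and RPL7 remained lower by 1.09, 0.94 and 0.88 after centring. In contrast RPLP1 was lower by 0.38 (SE 0.08, adjusted p = 3.2e-05) and RPS16 by 0.17 (SE 0.07, adjusted p = 0.034), and after centring both were higher, by 0.07 and 0.28.

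The paralogues followed courses of their own. RPL22L1 is a close relative of RPL22, and in mice the loss of RPL22 raises it. RPL22L1 had 13.41, 13.71 and 14.35 at 94 dpc, 13.05, 13.53 and 14.10 at 1 dpn, 11.18, 11.54 and 11.77 at 28 dpn, and 10.93, 11.47 and 11.99 at 188 dpn. The first pair of ages and the last pair overlapped, and every array at 28 dpn lay below every array at 1 dpn. The change was −0.16 in period I (SE 0.11, adjusted p = 0.20), −2.08 in period II (SE 0.10, adjusted p = 1.3e-17), a signal lower by 76.4%, and −0.05 in period III (SE 0.09, adjusted p = 0.69). Between fetus and adult it was −2.30 (SE 0.10, adjusted p = 1.0e-19), the deepest fall of all members. RPL22, in contrast, fell in period I, with 14.20, 14.46 and 14.82 at 1 dpn and 15.17, 15.44 and 15.63 at 94 dpc (change −0.92, SE 0.07, adjusted p = 1.8e-12), and changed by 0.13 in period II (SE 0.07, adjusted p = 0.11). On the same array, RPL22L1 minus RPL22 averaged −1.67 in fetuses, −0.92 at 1 dpn, −3.13 at 28 dpn and −3.42 in adults. It changed by 0.76 in period I and −2.21 in period II (two-sided permutation tests, adjusted p = 3e-05 for both), and by −0.29 in period III (adjusted p = 0.024). The change of RPL22L1 in period II lay between −1.86 after centring and −2.33 after quantile normalization.

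RPL7L1, a relative of RPL7 whose yeast counterpart is an assembly factor of the large subunit, was the only member called higher in period I. It had 11.30, 12.02 and 12.20 at 94 dpc, 11.93, 12.44 and 13.18 at 1 dpn, 11.30, 11.54 and 11.84 at 28 dpn, and 10.66, 11.33 and 11.70 at 188 dpn. All arrays at 28 dpn lay below those at 1 dpn, and the other neighbouring ages overlapped. The change was 0.54 in period I (SE 0.10, adjusted p = 1.9e-05), −0.95 in period II (SE 0.09, adjusted p = 2.2e-10) and −0.34 in period III (SE 0.10, adjusted p = 6.3e-03). With the added RNAs as a covariate the rise of RPL7L1 in period I did not pass, and labelling and age cannot be told apart there. RPL7 fell while RPL7L1 rose, and RPL7L1 minus RPL7 averaged −2.13 at 1 dpn and −3.69 at 94 dpc without overlap (difference 1.55, adjusted p = 3e-05). In periods II and III this measure changed by −0.60 and −0.37 (adjusted p = 3e-05 and 6.1e-04).

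RPS27L, which in humans is a target of p53, was the member that gained most between fetus and adult. It had 12.68, 13.04 and 13.21 at 188 dpn, against 12.12, 12.40 and 12.56 at 94 dpc, without overlap (change 0.62, SE 0.06, adjusted p = 4.6e-11). The change was 0.15 after quantile normalization and 1.07 after centring and passed in both. RPS27 fell, with 14.43, 14.92 and 15.24 at 188 dpn and 15.01, 15.28 and 15.58 at 94 dpc (change −0.45, SE 0.09, adjusted p = 1.3e-05, and −0.0093 without a pass after centring). RPS27L minus RPS27 averaged −1.84 at 188 dpn and −2.92 at 94 dpc (difference 1.08, adjusted p = 3e-05). Most of this arose in period I (0.93, adjusted p = 3e-05), whereas it changed by 0.13 in period II (adjusted p = 0.29) and 0.02 in period III (adjusted p = 0.86). These were 12 tests on 3 pairs with 100000 resamples each, and 2e-05 is the smallest p they can give. Since such differences set a dimmer against a brighter probe-set, compression at the upper end of the scale would bear on them, which was not tested. RPL26L1, a near copy of RPL26, had 10.80, 11.15 and 11.42 at 188 dpn, against 10.64, 10.96 and 11.18 at 94 dpc (change 0.21, SE 0.06, adjusted p = 2.8e-03), and with the added RNAs as a covariate the change was −0.05.

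**Figure D4:**
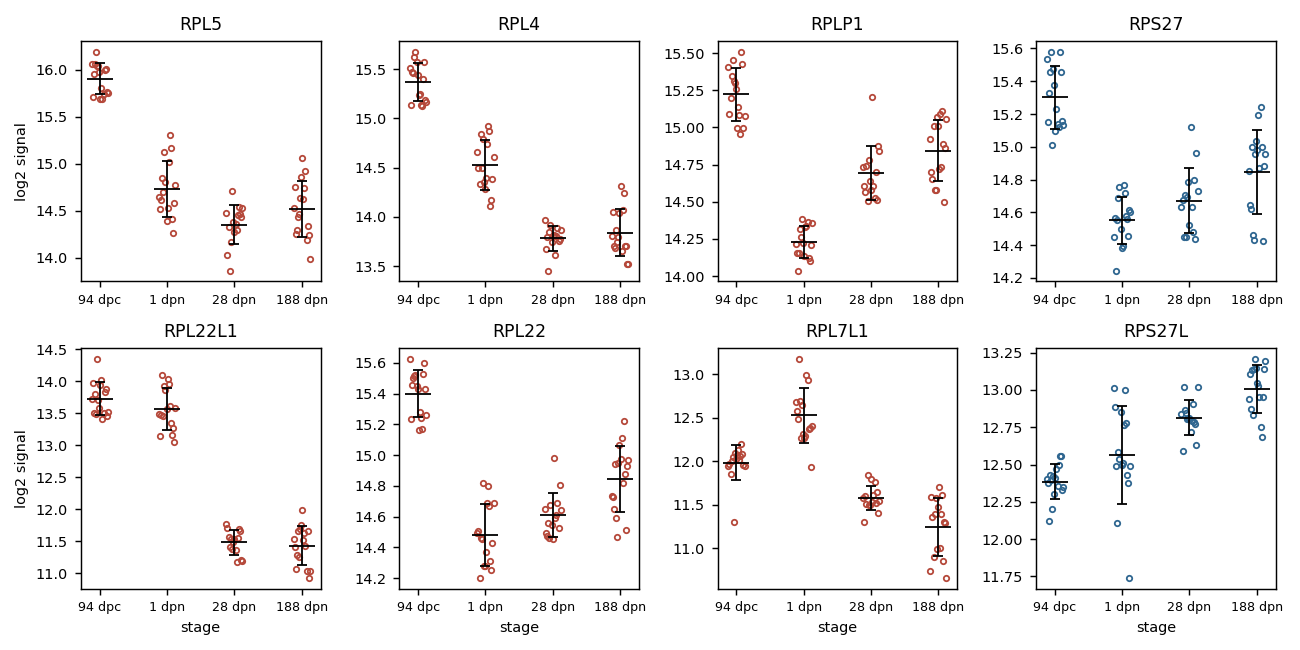
Log2 signal of 8 ribosomal protein genes on each array against stage (red, large subunit; blue, small subunit). Circles are arrays, and black bars give the mean and SD; the vertical scales differ. RPL5 and RPL22 step down between 94 dpc and 1 dpn, RPL4 there and again by 28 dpn, RPL22L1 only between 1 dpn and 28 dpn, RPL7L1 peaks at 1 dpn, and RPS27L lies between 12.68 and 13.21 at 188 dpn, above all fetal arrays.

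Both subunits moved in the same direction, and the large subunit was somewhat lower relative to the small one at 188 dpn than at 94 dpc. The age at which this difference arose depended on the measure. The median change of the large minus that of the small subunit was −0.05 in period I, −0.03 in period II, −0.07 in period III and −0.12 between fetus and adult (−0.24 after quantile normalization). Per array, the mean of the large minus that of the small subunit had a lowest, median and highest value of −0.65, −0.53 and −0.45 at 94 dpc, −0.69, −0.54 and −0.40 at 1 dpn, −0.77, −0.63 and −0.53 at 28 dpn, and −0.87, −0.70 and −0.43 at 188 dpn. The adult values were lower on average but overlapped those of all other ages. RPL22L1 and the dim genes weigh on this measure. Over the 31 large and 23 small subunit genes with a mean signal above 14, it averaged −0.15 in fetuses, −0.21 at 1 dpn, −0.25 at 28 dpn and −0.26 in adults, with ranges, in the same order of ages, of −0.20 to −0.10, −0.31 to −0.17, −0.41 to −0.20 and −0.39 to −0.19. Over these genes the fetal range overlapped that of 28 dpn only at its edge and that of 1 dpn more widely. After quantile normalization the measure over all members was −0.73 ± 0.10 in adults and −0.50 ± 0.04 in fetuses (SD). With the mean of all probe-sets of a gene it averaged −0.72 in fetuses, −0.72 at 1 dpn, −0.75 at 28 dpn and −0.85 in adults. The ranges of all ages overlapped on this measure. These differences were not tested.

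RPL26, RPL30 and RPS15A did not pass the filter on level. RPL26 exceeded background on 14 of 16 fetal arrays, 16 of 16 at 1 dpn, 13 of 15 at 28 dpn and 8 of 16 at 188 dpn. In the same order of ages RPL30 did so on 10, 9, 6 and 5 arrays and RPS15A on 4, 5, 3 and 3. Their probe-sets measured little of these mRNAs at any age. The probe-set that the study assigns to RPL10, its reference gene for qPCR, carries a second symbol in the annotation and is therefore no member. It averaged 15.86 ± 0.20 (SD) in fetuses, 15.34 ± 0.21 at 1 dpn, 15.32 ± 0.24 at 28 dpn and 15.42 ± 0.24 in adults. Like that of most members, its mean was highest in the fetus.

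Of the 24 genes with further probe-sets, 25 such probe-sets were tested in period I. Of these 20 were lower and 2 higher, and 22 had the sign of the brightest probe-set of the gene. Their median was −0.73, against −0.75 for the brightest. RPL35 and RPLP0 were called in opposite directions by their probe-sets in period I, RPL23 and RPLP0 in period II, and RPL35 and RPS28 between fetus and adult. In period II 13 of 24 further probe-sets had the sign of the brightest, and in period III 12 of 24. The medians of the further probe-sets were −0.08 in period II and −0.02 in period III, against −0.02 and 0.17 for the brightest of the same genes. In period III 1 further probe-set was higher and 2 were lower, and none passed together with the brightest of its gene. The median of the further probe-sets, which by the rule are the dimmer ones, thus showed no rise.

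Animals of 1 age differed less in these signals than in most. The median SD of the 54 bright members was 0.19 in fetuses, 0.17 at 1 dpn, 0.18 at 28 dpn and 0.22 in adults, beside 0.33, 0.40, 0.32 and 0.36 over all probe-sets above the median of the array. The bright members lie near the upper end of the scale, where compression would lower an SD, and its part was not tested. RPS18, a protein of the head, had the largest SD of these members at the 3 postnatal ages (0.34, 0.27 and 0.40). At 188 dpn it ranged between 14.14 and 15.33.

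Other genes of translation did not all move with the ribosomal proteins. In period I, RACK1, a protein of the small subunit head that serves as a scaffold for kinases, FAU, which encodes a small subunit protein fused to a ubiquitin-like one, and RPL36AL all fell (−0.76, −0.31 and −0.30). Shares over all probe-sets tested were 34.0% lower and 22.9% higher. The list of elongation genes held EEF1A1, EEF1B2, EEF1D, EEF1G and EIF5A, and also EEF1E1, TPT1, PABPC1 and PABPC4, which are no elongation factors themselves. Of these 9 genes 6 fell (EEF1B2, EEF1D, EEF1G, TPT1, PABPC1 and PABPC4) and 2 rose (EEF1A1 and EEF1E1), with a median of −0.77. The EEF1A1 probe-set was dim (10.61 at 1 dpn and 10.10 at 94 dpc). Brighter control probe-sets at the 3′ end of the same factor averaged 15.43 at 1 dpn and 16.04 at 94 dpc, so the rise rests on the probe-set. EEF1D and EEF1B2, which reload elongation factor 1 alpha with GTP, changed by −1.34 and −1.11 (SE 0.08 for both, adjusted p = 4.7e-15 and 4.1e-13). Of 33 initiation factors 14 fell and 6 rose, with a median of −0.13, led by EIF4B, a cofactor of the helicase of the cap complex (−1.73, SE 0.10, adjusted p = 3.7e-16). Genes of ribosome biogenesis were split, with 17 of 72 lower, 18 higher and a median of 0.02. Of 58 mitochondrial ribosomal protein genes 32 rose and 7 fell, with a median of 0.26. Most cytosolic ribosomal protein genes and most of these 9 genes thus fell between 94 dpc and 1 dpn, whereas more mitochondrial ribosomal protein genes rose than fell.

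In period II the order was different. Over all probe-sets tested 42.9% were lower and 28.8% higher. Biogenesis genes were lower in 45 of 72 and higher in 6, with a median of −0.51, and initiation factors in 21 of 33 and higher in 3, with a median of −0.40. KRR1 and NOP58, which act in the assembly of the small subunit and in the methylation of rRNA, changed by −3.02 and −1.95 (SE 0.26 and 0.19, adjusted p = 6.2e-12 and 8.2e-11). The median of the cytosolic ribosomal proteins was −0.01 in the same period, that of the 9 elongation and associated genes 0.05 and that of the mitochondrial ribosomal proteins 0.06. Markers of proliferation (13 on the array) had a mean signal between 6.38 and 8.10 at 28 dpn, with MCM4 and CCNA2 not above background, and between 5.89 and 9.83 at 1 dpn, with all above background. Their part in these changes was not tested. In period III 15 of 67 biogenesis genes were lower and 3 higher, and 22.5% and 12.3% of all probe-sets tested were, so the share of lower genes was close to that of the whole array. Between fetus and adult the medians were −0.85 for biogenesis (50 of 69 lower, 8 higher), −0.88 for initiation (24 of 33 lower, 2 higher), −0.83 for elongation and associated genes (7 of 9 lower, 2 higher) and 0.14 for mitochondrial ribosomal proteins (25 of 58 higher, 12 lower), beside −0.62 for the cytosolic ribosomal proteins and −0.37 over all probe-sets tested, of which 53.1% were lower and 27.0% higher. EEF1A1 was among the higher elongation genes, but its 3′ control probe-sets averaged 15.47 in adults and 16.04 in fetuses.

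**Figure D5:**
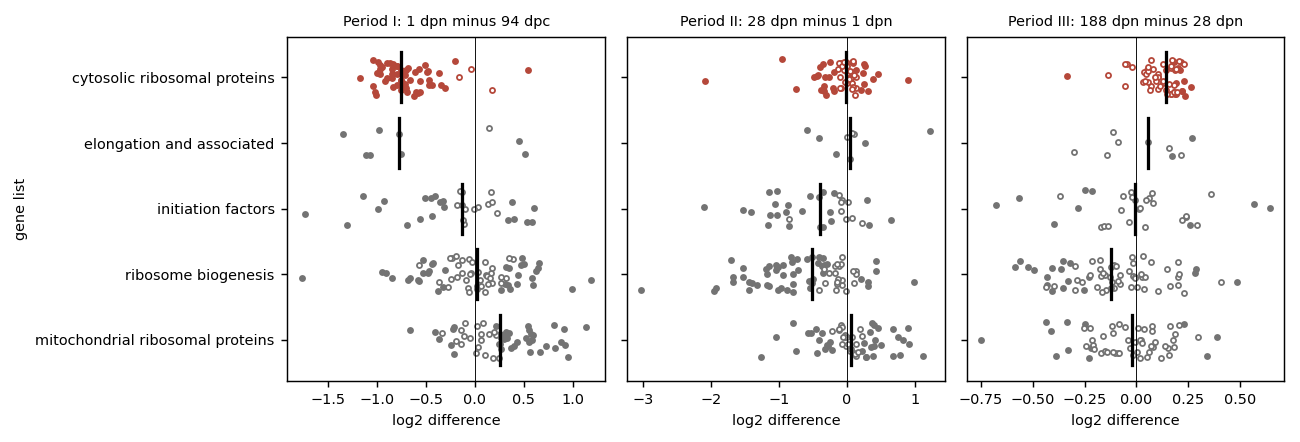
Change of each gene (later minus earlier stage, log2 scale) in the cytosolic ribosomal proteins and in 4 other lists of translation genes, in periods I, II and III. Filled circles passed the test, open circles did not, and black bars are medians. Cytosolic ribosomal proteins and the list of elongation and associated genes have medians of −0.75 and −0.77 in period I, and biogenesis and initiation factors have medians of −0.51 and −0.40 in period II; the horizontal scales differ.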

How the data were processed

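Deposited values were log2 signals of 24123 probe-sets on 63 porcine Affymetrix arrays, which the authors had scaled so that the linear values of each array have a trimmed mean of 500. The submitters' processing notes name GCOS 1.1.1. The GCRMA values, MAS5 detection, filter on the standard deviation and mixed model of the study's methods are not part of these values. Controls (188 probe-sets) were excluded. The platform annotation gave the symbols, and all 62 members matched RefSeq gene IDs. As background, the 95th percentile of 23 controls that have no target was taken. Precision is limited by the number of arrays and by signals near background or the upper end of the scale.

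Each comparison was fitted on its 2 stages with limma 3.58.1 in R 4.3.3 (lmFit and eBayes, two-sided), over probe-sets that exceeded the 50th percentile of their array in 50% or more of the arrays of 1 stage. The threshold was a Benjamini-Hochberg adjusted p of 0.05. Paralogue differences were tested by permutation (scipy 1.17.1). The procedure was tested on simulated data.

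Named genes were RPL10, RPLP0, RPLP1, RPLP2 and RPSA, the 5 largest called changes of each direction and comparison, members called against the majority, paralogue pairs, members under the filter and the 3 members with the smallest range of stage means; of the other lists, the 2 largest called changes. Other members given singly, among them RPL11 in period I, were chosen after their values were seen. Members and lists were chosen with earlier results of these data known. Alternatives were other filters, quantile normalization, centring, 1 fit of all arrays, arrayWeights, 3′ minus 5′ differences as covariates, the mean of all probe-sets of a gene, stricter thresholds and leaving out arrays.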

Additional observations from a re-analysis of the deposited data

How the results depend on the processing

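The direction of the median change in period I and between fetus and adult was the same under all alternatives run, and its size and the splits of periods II and III depended on the scaling. Main counts are 1 higher and 55 lower in period I, 10 and 18 in period II, 15 and 1 in period III, and 2 and 54 between fetus and adult. The counts under the alternatives are given here without the shares over all probe-sets under the same setting. In period I the members higher were 4 after quantile normalization, 2 after centring, 2 with all 63 arrays in 1 fit, 2 with arrayWeights and 0 with the added RNA difference as covariate, under which 6 were lower. In period II 6 were higher and 30 lower after quantile normalization, 34 and 7 after centring, and 2 and 7 with the actin and GAPDH difference as covariate. In period III the members higher were 7 without a filter on level, 0 after quantile normalization, 36 after centring, 3 with the actin and GAPDH covariate and 1 at an adjusted p under 0.01, and those lower were 2 with the filter at the 75th percentile, 8 after quantile normalization, 2 with arrayWeights and 3 with the mean of the probe-sets. Between fetus and adult the members higher were 4 after quantile normalization, 8 after centring, 1 with the added RNA covariate and 4 with the mean of the probe-sets, 25 were lower after centring, and the large minus small subunit median was −0.24 after quantile normalization (main −0.12). Of all called members, 8 in period I, 3 in period II, 1 in period III and 3 between fetus and adult changed sign after quantile normalization, and 3 in period II and 11 between fetus and adult after centring. The mean of the probe-sets turned 1, 2, 1 and 2 in the same order of comparisons, the added RNA covariate 1 in period I and 1 between fetus and adult, and the actin and GAPDH covariate 1 in period II. Of these, the genes given singly turned as follows. After quantile normalization RPL27, RPS16 and RPSA in period I changed by 0.12, 0.24 and 0.17, RPS27L in period II by −0.026 and RPS16 between fetus and adult by 0.084. After centring RPLP0 in period II changed by 0.017, and RPLP1 and RPS16 between fetus and adult by 0.067 and 0.28. With the added RNA covariate RPL27 in period I changed by 0.021 and RPL26L1 between fetus and adult by −0.046. With the mean of the probe-sets RPLP0 in period II changed by 0.12. Quantile normalization sets the top of every array to the same values, which is where most members lie; other causes were not tested. Livers were taken when the animals were killed, so no animal was sampled at more than 1 age and animals could not be paired between ages. The labels do not name the mothers, so litter mates could not be paired between ages either.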

Other observations

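Control probe-sets for ribosomal RNA changed between 1 dpn and 28 dpn, where the ribosomal protein genes as a set did not. The 28S probe-set averaged 14.79 ± 0.21 at 28 dpn and 12.60 ± 0.37 at 1 dpn (SD). A probe-set of 18S averaged 10.19 ± 0.81 at 28 dpn and 12.18 ± 0.36 at 1 dpn, whereas a second one averaged 13.60 ± 0.42 at 28 dpn and 9.04 ± 0.83 at 1 dpn. Labelling by the standard protocol starts from the poly(A) tail, so these signals are no measure of the amount of ribosomal RNA.

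The probe-set annotated to EEF1A1, elongation factor 1 alpha, changed upwards, with a change of 0.51 (SE 0.11, adjusted p = 2.0e-04) in period I and 1.23 (SE 0.09, adjusted p = 4.0e-13) in period II. The brighter control probe-sets at the 3′ end of the same factor averaged 15.43 ± 0.16 at 1 dpn and 16.04 ± 0.20 at 94 dpc, which is the direction of the ribosomal protein genes.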
